A study of Mus musculus with 2 samples.

Results

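The collagen chains were taken as every mouse transcript probe on the array whose deposited gene name reads Col, a type number, the letter a and a chain number. The rule found 81 probes of 41174, and these stand for 40 genes of 27597. They fall into 8 fibrillar chains, 9 chains of basement membranes, 7 cartilage chains and 16 other chains. RNA came from the lung lobes of 2 male littermate embryos at E16.5, a stage of branching fetal lung, on a mixed Sv129/CD-1 background, 1 heterozygous (+/−) and 1 homozygous (−/−) for the Foxj1lacZ allele, with tissue outside the lobes removed. The labels name the samples both as lung lobes and as lung epithelium. They describe no separation of epithelium, so the RNA is treated here as that of whole lobes. The control lung carries 1 copy of that allele too, and no wild-type lung was measured. The heterozygous RNA was labelled with Cy3 and the homozygous RNA with Cy5, and both were hybridised to 1 array without a dye swap. Genotype, dye and individual embryo therefore cannot be told apart, and no p-value can be had.

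Foxj1 encodes a forkhead transcription factor that drives the formation of motile cilia. Collagens are trimers of alpha chains wound into a triple helix, which needs glycine at regular spacing along each chain. Fibrillar collagens form the load-bearing fibrils of interstitial tissue, and type IV collagen forms the sheet of basement membranes under epithelium and around vessels. Types II, IX, X and XI build cartilage, which supports the large airways. Chains of one trimer are made together in one cell, so partner chains are described side by side.

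The glycine spacing can be read in the probes themselves. Glycine codons begin with GG, and in a triple helix they return every 9 bases. Of the 81 collagen probes, 3 (3.7%) held at least 4 such codons in an unbroken series within an open reading frame, against 5 of all 41174 probes (0.012%). They are shown because they are the collagen probes that lie in helix-coding sequence by this pattern, with the glycine codons in capitals.
Col5a1 probe: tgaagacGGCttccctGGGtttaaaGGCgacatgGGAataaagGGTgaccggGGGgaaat
Col5a3 probe: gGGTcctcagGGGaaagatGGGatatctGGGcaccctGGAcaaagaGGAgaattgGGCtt
Col11a2 probe: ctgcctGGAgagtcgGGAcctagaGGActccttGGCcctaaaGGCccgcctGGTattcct
On mm8, the build of the array files, the Col5a1 probe lies at chr2:27808732-27811155 on the plus strand, the Col5a3 probe at chr9:20536024-20536753 on the minus strand and the Col11a2 probe at chr17:33662796-33662962 on the plus strand. Each interval is longer than the 60 bases of the probe, so each probe crosses at least 1 splice junction. Their log2 ratios, homozygous over heterozygous, were 0.12 ± 0.30, −0.06 ± 0.44 and 0.09 ± 0.27. Each stood above the ratio of the same chain's other probe, which was −0.05, −0.36 and −0.21. The helix probe was also the dimmer of the pair in each case, and over all other genes with at least 2 kept probes the dimmest probe had the higher ratio in 65.3%. The Col5a3 helix probe was above background in the homozygous lung alone, so its ratio is uncertain.

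The number after ± is the scanner software's error of its own log ratio, on the log2 scale and as the median over a gene's probes. It reflects noise of the spots and scanner and leaves out differences between probes of a gene and between animals. Levels are log2 normalized intensities after background correction, and since probes differ in how strongly they bind, levels are compared between the channels and not between chains. A probe was kept when most of its spots were well above background in either channel. Of the 81 probes 68 were kept, and 38 of the 40 chains had at least 1 kept probe. Of all spots on the array, 69.0% exceeded background clearly for the heterozygous RNA and 75.6% for the homozygous RNA, and 21171 genes were detected. The pooled SD between different probes of a gene was 0.27, and the median SD between repeated spots of a probe was 0.05. Lung identity was clear in both channels, with the lung epithelial factor Nkx2-1 at 13.16 (heterozygous) and 13.01 (homozygous) and the lung mesenchymal factor Tcf21 at 14.04 and 13.88.

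By the median of its kept probes, none of the 38 collagen chains reached a measured 2-fold difference between the lungs, while 1.88% of all detected genes lay 2-fold or more below the heterozygous lung and 0.576% lay 2-fold or more above it. That count depended on the processing, since a chain passed 2-fold under 6 of 8 alternatives. These 8 are not independent of each other. The scanner software's log ratio and the series matrix gave the same median over the chains (−0.015), and keeping outlier spots gave the reported one (−0.081). Col17a1 passed 2-fold under 5, Col19a1 under 3 and Col4a4 under 1, and Col19a1 was above background in the heterozygous lung alone. A further 9 chains join probes above background in both channels with a probe above it in the homozygous lung alone. From the probes above background in both channels, Col17a1 was 2.18-fold higher. The median log2 ratio over the chains was −0.08, against −0.003 over all genes, and 22 of 38 chains lay below 0 (57.9%), against 50.4% of all genes. At a smaller step of 0.5 on the log2 scale, chosen after the values were seen, 2 chains (5.26%) were lower, against 7.83% of all genes, and 1 chain (2.63%) was higher, against 3.04%. These shares are near those of all genes. With ratios centred on the array median in place of the intensity-dependent loess fit, the median of all genes was 0.22 and that of the chains 0.31, so the chains turned from 0.08 below all genes to 0.09 above them.

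**Figure D1:**
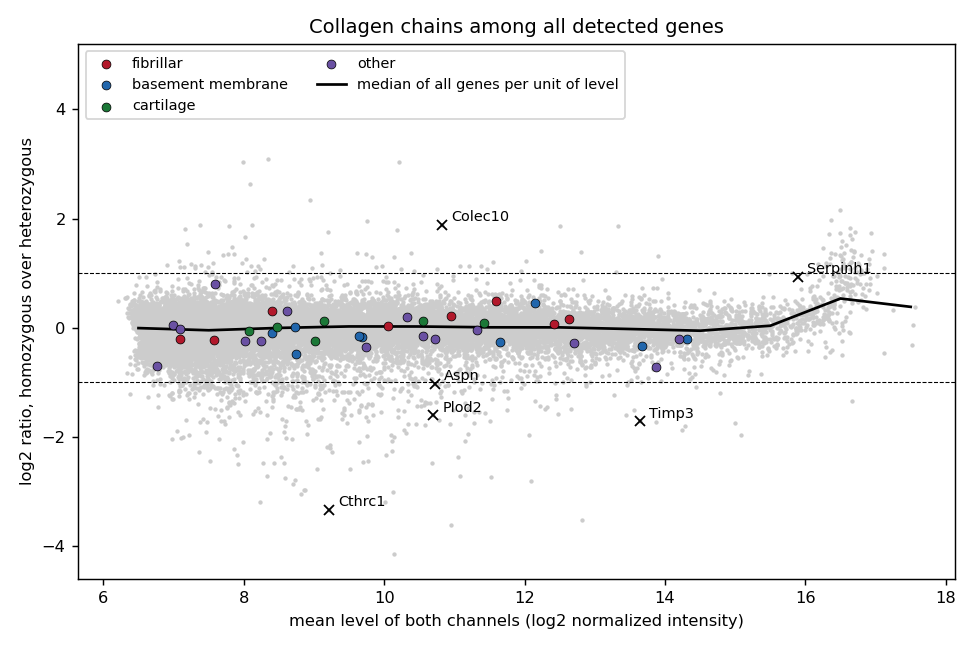
Each point is a detected gene, with the mean log2 level of both channels on the x axis and the log2 ratio of homozygous over heterozygous on the y axis. Coloured points are the 38 collagen chains by class, the black line is the median of all genes per unit of level, dashed lines mark 2-fold, and crosses mark 6 genes of collagen-related lists. As plotted, the collagen points lie between the dashed lines, from −0.71 (Col14a1) to 0.80 (Col17a1). Col19a1 was above background in the heterozygous lung alone, and Col17a1 was past 2-fold under 5 of 8 alternatives.

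Fibrillar chains had a median of 0.12 and ran from −0.22 to 0.48, with 6 of 8 above 0. Type I collagen, the main protein of fibrils, is made of Col1a1 and Col1a2. Col1a1 was at 10.84 in the heterozygous and 11.05 in the homozygous channel, with a ratio of 0.21 ± 0.21. Its probe at chr11:94767851-94767910 was printed as 10 spots, which gave 0.08 with an SD of 0.06 between spots and a range from −0.04 to 0.14. The other Col1a1 probes stood at 0.21 and 0.36, so the repeated spots of one probe agreed more closely than different probes of the gene. Col1a2 was at 11.36 and 11.84, with a ratio of 0.48 ± 0.34. This joins a bright probe with one at chr6:4463773-4463832 (6.51 and 6.88) that was above background in the homozygous lung alone. The probe at chr6:4490619-4490678, which alone was above background in both channels, gave 0.60, or 1.51-fold higher, and lay at 16.21 and 16.80. Probes at levels from 16 to 17 had a median ratio of 0.54 over the whole array (n = 335), close to that of this Col1a2 probe. The part of brightness in the ratio was not tested.

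Col3a1, the partner of type I collagen in extensible tissue, was at 12.38 and 12.45 with a ratio of 0.06 ± 0.21. Its probes differed in sign, at 0.35 for chr1:45293290-45293349, with levels of 16.22 and 16.58, and at −0.23 for chr1:45266098-45266157. The first lies in the range of 16 to 17, where the median ratio over all probes was higher, at 0.54. Type V collagen sets the diameter of fibrils. Its chains Col5a1 (0.03 ± 0.25), at 10.04 in the heterozygous and 10.07 in the homozygous channel, and Col5a2 (0.17 ± 0.21), at 12.54 and 12.71, lay within their errors. The less common Col5a3 was at 7.19 and 6.98, with a ratio of −0.21 ± 0.34. The late-found fibrillar chains Col24a1 and Col27a1 went to opposite sides. Col24a1 was at 7.68 and 7.47 (−0.22 ± 0.34), and Col27a1 was at 8.23 and 8.58 (0.31 ± 0.21). For Col27a1 the downstream probes gave 0.31 and 0.35, while the most upstream probe, at chr4:62778935-62778994, gave −0.47.

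**Figure D2:**
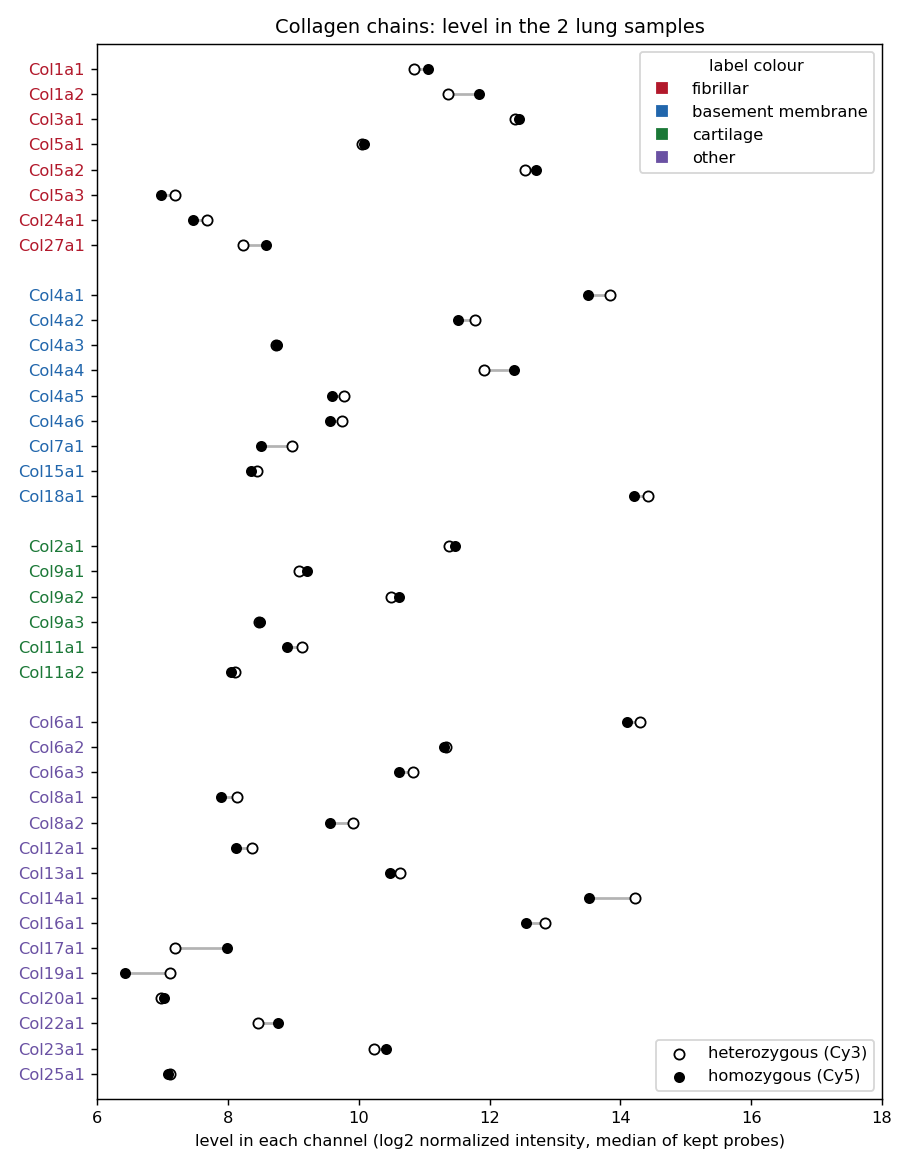
Log2 normalized intensity of each of the 38 detected collagen chains on the x axis, as the median of its kept probes, with an open circle for the heterozygous (Cy3) and a filled circle for the homozygous (Cy5) lung. Chains are grouped by class, and the gap within a chain is its ratio. The widest gaps belong to Col17a1 (7.19 and 7.99), Col14a1 (14.22 and 13.51) and Col19a1 (7.12 and 6.42).

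Basement membrane chains had a median of −0.18 under loess, with 7 of 9 below 0, but of 0.31 with median centring, 0.09 above that of all genes. The ratios under loess ran from −0.47 to 0.45. The core of every basement membrane is a trimer of Col4a1 and Col4a2, and both were slightly lower in the homozygous channel under loess but higher with median centring. Col4a1 was at 13.84 and 13.50, with a ratio of −0.34 ± 0.21, or 1.26-fold lower. Its probes at chr8:11198981-11199040 and chr8:11199818-11201652 gave −0.34 and −0.33. Col4a2 was at 11.77 and 11.52, with a ratio of −0.26 ± 0.21 and probes at −0.36 and −0.15. The ratios of these partners differed by 0.08, less than the SD of 0.27 between probes of a gene. With median centring they were 0.37 and 0.31, again close to each other.

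Col4a1 and Col4a2 lie head to head and share their promoter. The start sites in RefSeq for GRCm38.p6 are position 11312826 of chromosome 8 for Col4a1, read on the minus strand, and position 11312805 for Col4a2, read on the plus strand. Their first bases thus overlap by 22 bases, shown here as the stretch from which both genes start, on the plus strand at chr8:11312805-11312826 of GRCm38.p6.
Shared start of Col4a1 and Col4a2: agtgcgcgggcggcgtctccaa
Across the 35 promoter windows of 300 bases found in RefSeq for 32 of the chains, the forkhead-type motif TGTTTAC, searched on both strands, was present in 1 (Col6a1), against 3.65% of all 32851 windows. A match or its absence in this window describes the letters alone.

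The remaining type IV chains make the specialised networks of alveolar, kidney and smooth muscle basement membranes. Col4a3 was at 8.73 and 8.75, with a ratio of 0.02 ± 0.21 and probes at 0.002 and 0.03. Its partner Col4a4 was at 11.92 and 12.37, with a ratio of 0.45 ± 0.21. The Col4a4 probes disagreed by 0.99. The probe at chr1:82329747-82329775 gave 0.95 and the one at chr1:82327502-82327561, further downstream, gave −0.04. The interval given for the first is shorter than the 60 bases of a probe, so the place of its remaining bases is not known. Col4a5, the third chain of this trimer, was at 9.77 and 9.60 (−0.18 ± 0.21), and Col4a6 was at 9.74 and 9.56 (−0.15 ± 0.21). By their reported medians the ratios of Col4a3, Col4a4 and Col4a5 spanned 0.63, the widest span among the 8 sets of partner chains compared. That rank rests on the Col4a4 probe at 0.95. Type VI collagen spans more when Col6a3 is taken from its probe above background in both channels (−0.81), against Col6a2 at −0.04.

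Col7a1, which forms the fibrils that anchor epithelium to the tissue beneath, was the lowest of the class. It was at 8.98 and 8.51 by a single probe at chr9:108841747-108841806, with a ratio of −0.47 ± 0.21, or 1.39-fold lower. It stayed below 0 under all 8 processing alternatives, from −0.53 to −0.18. Col15a1 and Col18a1 carry glycosaminoglycans, and the end of Col18a1 is the source of endostatin. Col18a1 was at 14.41 and 14.20 (−0.21 ± 0.21), with probes at −0.39 and −0.04. Col15a1 was at 8.45 and 8.35 (−0.10 ± 0.24), with probes of opposite sign at −0.43 and 0.23.

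**Figure D3:**
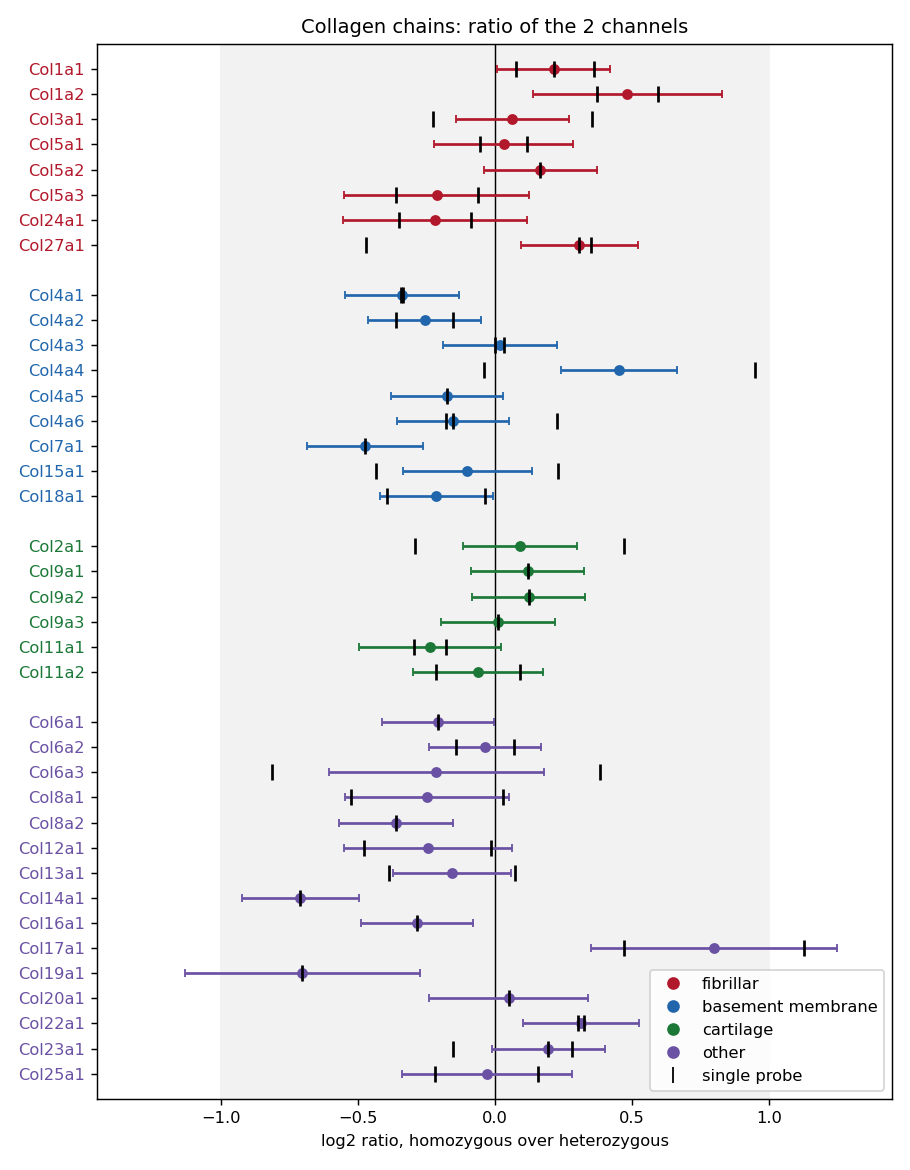
Log2 ratio of homozygous over heterozygous on the x axis for each of the 38 detected chains, with the scanner software's error as the bar and each kept probe as a black tick, grouped by class. The grey band marks less than 2-fold. Most bars cross or lie near 0, and the probes of Col6a3 (−0.81 and 0.39), Col4a4 (−0.04 and 0.95) and Col2a1 (−0.29 and 0.47) lie further apart than the bars.

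Cartilage chains had a median of 0.05, or −0.08 with the brightest probe of each gene, and ran from −0.24 to 0.12 over 6 detected chains. Col2a1, the main fibril chain of cartilage, was at 11.38 and 11.47, with a ratio of 0.09 ± 0.21. That value is the midpoint of kept probes that went to opposite sides although they share most of their sequence. They are shown with the 40 shared bases in capitals, and both lie on the minus strand of chromosome 15.
Col2a1 upstream probe: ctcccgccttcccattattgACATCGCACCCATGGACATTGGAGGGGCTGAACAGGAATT
Col2a1 downstream probe: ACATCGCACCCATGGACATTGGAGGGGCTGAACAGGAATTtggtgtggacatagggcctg
The upstream probe (chr15:97804108-97804167) had 1 spot, levels of 9.41 and 9.88 and a ratio of 0.47 ± 0.21. The downstream probe (chr15:97804088-97804147) had 9 kept spots of 10, levels of 13.35 and 13.05 and a mean ratio of −0.29 with an SD of 0.02 between spots, all between −0.33 and −0.26. The gap of 0.76 between these overlapping probes was larger than the scanner error and the spread of repeated spots.

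Type IX collagen sits on the surface of cartilage fibrils, and its 3 chains stayed together. Col9a1 was at 9.08 and 9.20 (0.12 ± 0.21), Col9a2 at 10.49 and 10.61 (0.12 ± 0.21) and Col9a3 at 8.47 and 8.49 (0.01 ± 0.21), a span of 0.11. Type XI collagen nucleates the same fibrils. Col11a1 was at 9.13 and 8.89 (−0.24 ± 0.26), and Col11a2 at 8.10 and 8.04 (−0.06 ± 0.24). Col10a1, the chain of hypertrophic cartilage, was not well above background in either channel. Of 10 marker genes of cartilage cells 9 were detected, and their summed level was 12.44 in the heterozygous and 12.58 in the homozygous channel on the log2 scale. Single markers went both ways, with 4 of 9 ratios below 0. Chad was lowest at −0.73, followed by Snorc (−0.31), Cnmd (−0.29) and the aggrecan gene Acan (−0.15). Epyc was highest at 0.60, Sox9 was at 0.25, and Matn1 was not detected. Sox9 was the brightest of the detected markers, at 11.54 in the heterozygous and 11.79 in the homozygous channel. The summed level therefore follows Sox9 more than any other marker and is not an even measure of the list. Whether the Sox9 RNA of these whole lobes came from cartilage cells was not tested.

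The other chains held the largest differences in both directions. Their median was −0.21 under loess, with 11 of 15 detected chains below 0, and 0.09 with median centring, which is 0.13 below all genes. Among the FACIT chains, which decorate fibrils without forming them, Col14a1 had the lowest reported ratio. Col19a1 was close to it, at −0.70 from 1 kept probe. Col6a3 was lower, at −0.81, from its probe above background in both channels. Col14a1 was at 14.22 in the heterozygous and 13.51 in the homozygous channel, −0.71 ± 0.21 or 1.64-fold lower, by the kept probe at chr15:55350660-55350719. Its second probe was not above background in either channel. Over 8 alternatives the ratio ran from −0.71 to −0.005, the latter with median centring, where it lay 0.23 below the median of all genes. Col12a1, the closest relative of Col14a1, was at 8.36 and 8.12 (−0.25 ± 0.31), with probes at −0.48 and −0.01, and Col16a1 was at 12.84 and 12.56 (−0.28 ± 0.21). Col22a1, a chain of tissue junctions such as that of muscle and tendon, lay on the other side at 8.45 and 8.77 (0.32 ± 0.21), and its probes gave 0.30 and 0.33. Col20a1 was at 6.97 and 7.02 (0.05 ± 0.29).

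Col19a1 was well above background only in the heterozygous lung, by 1 of its 4 probes. It was at 7.12 there and 6.42 in the homozygous channel, a ratio of −0.70 ± 0.43 or 1.63-fold lower. The lowest level of any probe well above background in the homozygous channel was 6.32. Since 6.42 lies above that, the fold is the measured value and not a lower bound. The other 3 Col19a1 probes were not above background in either channel. Over 7 alternatives the Col19a1 ratio was −2.11 at the lowest and 0.05 at the highest.

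The 4 transmembrane collagens are single-pass proteins of the cell surface. Col17a1, a hemidesmosome protein that fastens basal epithelial cells to the basement membrane, had the highest reported ratio of all chains. It was at 7.19 in the heterozygous and 7.99 in the homozygous channel, a ratio of 0.80 ± 0.45 or 1.74-fold higher. Its probes agreed in direction. The one at chr19:47699715-47699774 gave 1.13 ± 0.25 with levels of 7.98 and 9.11, and the one at chr19:47700027-47700086 gave 0.47 ± 0.64 with levels of 6.39 and 6.86 and exceeded background clearly for the homozygous RNA alone. Col17a1 stayed above 0 under all 8 alternatives, from 0.76 to 2.10, and passed 2-fold under 5 of them. Col13a1 was at 10.63 and 10.48 (−0.16 ± 0.21), Col23a1 at 10.23 and 10.42 (0.19 ± 0.21) and Col25a1 at 7.11 and 7.08 (−0.03 ± 0.31).

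Type VI collagen forms beaded filaments around cells. Col6a1 was at 14.30 and 14.10 (−0.21 ± 0.20), Col6a2 at 11.33 and 11.30 (−0.04 ± 0.21) and Col6a3 at 10.83 and 10.62 (−0.21 ± 0.39). The Col6a3 value joins 2 probes that were far apart. The probe at chr1:92597492-92597551, at 15.28 and 14.47, gave −0.81 ± 0.22, and the one at chr1:92632986-92633045, at 6.39 and 6.77, gave 0.39 ± 0.57. The second of these was above background in the homozygous channel alone, and without it Col6a3 stood at −0.81. The short chain collagens of vessel walls, Col8a1 (8.14 and 7.90, −0.25 ± 0.30) and Col8a2 (9.91 and 9.55, −0.36 ± 0.21), lay 0.11 apart. Col28a1 was not well above background in either channel.

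Disagreement between probes was common among the chains. Of 26 chains with at least 2 kept probes 14 (53.8%) had probes of opposite sign, against 46.3% of other genes with as many, and the median range between probes of a chain was 0.37, against 0.25. Probes were also ordered along the transcript. The most upstream probe had the higher ratio in 14 of 26 chains (53.8%), against 59.0% of 6936 other genes, with a median difference of 0.05 against 0.06.

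By reported medians, genes that build or break down collagen gave larger single differences than the chains. The lists were written with earlier results of these data known, and their values are given under loess alone. Their extremes Plod2, Timp3, Serpinh1 and Ctsk rest on 1 kept probe each, while most chains join at least 2. Aspn, Cthrc1 and Colec10 of the later lists also have 1, and Sftpa1 has 2. Of the building and breakdown genes, only Plod2 and Timp3 lie by their medians beyond single chain probes at 1.13 (Col17a1) and −0.81 (Col6a3). By single probes, the lowest of 4 for Adamts2 also did, at −0.99, while the Adamts2 median was −0.25. The receptors stayed within these probe values. Of all detected genes, 1.88% passed 2-fold downward and 0.576% upward. Enzymes and chaperones of collagen synthesis had a median of 0.03 over 30 detected genes, 1 of them at least 2-fold lower. Plod2, the lysyl hydroxylase of telopeptides that sets the type of cross-link, was at 11.50 in the heterozygous and 9.90 in the homozygous channel, or −1.60 ± 0.25. The other lysyl hydroxylases Plod1 (0.25 ± 0.21) and Plod3 (0.05 ± 0.21) did not share this low value. Pcolce2, an enhancer of procollagen processing, was at −0.70 ± 0.21 and P3h4 at −0.34 ± 0.21. At the other end stood Serpinh1, the collagen chaperone Hsp47, at 15.43 and 16.37 (0.94 ± 0.21), and Tll1 (0.38 ± 0.37). Tll1 was above background in the homozygous lung alone (6.68 and 7.05), so its ratio is uncertain. The prolyl hydroxylases P4ha1 (0.08) and P4ha2 (0.17) and the cross-linking oxidase Lox (−0.31 ± 0.21) lay within 2-fold.

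Collagen receptors had a median of −0.06 over 10 genes, none of them past 2-fold. The integrin subunit Itga11, which pairs with Itgb1 to bind fibrillar collagen, was lowest at 9.34 and 8.53 (−0.81 ± 0.22). Ddr1 was at −0.35 ± 0.21 and Gp6 at −0.30 ± 0.29, while Ddr2 (0.26 ± 0.23) and Adgrg1 (0.43 ± 0.21) were highest. Genes of collagen breakdown had a median of −0.22 over 14 genes. Timp3, a matrix-bound inhibitor of metalloproteinases, was at 14.50 and 12.78 (−1.71 ± 0.25), the only member past 2-fold. The gelatinase Mmp2 (−0.37 ± 0.21) and its activator Mmp14 (−0.36 ± 0.21) followed, and the collagen-cleaving protease Ctsk (0.92 ± 0.27) and Mmp16 (0.67 ± 0.23) were highest.

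Small leucine-rich proteoglycans, which coat fibrils, had a median of −0.05 over 11 genes. Aspn was at 11.24 and 10.22 (−1.02 ± 0.23), Prelp at −0.50 ± 0.21 and Ecm2 at −0.43 ± 0.22, while the cartilage gene Epyc (0.60 ± 0.27) and Fmod (0.56 ± 0.21) were highest. Other proteins with a collagen-like helix had a median of −0.04 over 29 genes, 3 of them at least 2-fold lower and 1 higher. Cthrc1, a secreted protein named for its collagen repeat, was at 10.88 and 7.55 (−3.33 ± 0.41). The surfactant collectins Sftpd (−1.56 ± 0.26) and Sftpa1 (−1.54 ± 0.25) came next. The collectin Colec10 was at 9.88 and 11.77 (1.89 ± 0.28), followed by Eda (0.60 ± 0.25).

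**Figure D4:**
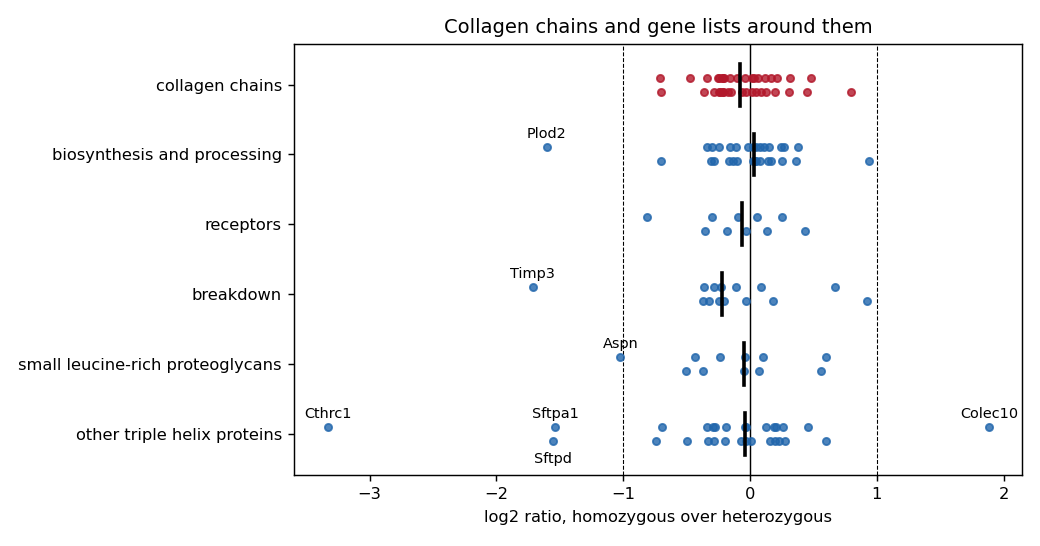
Log2 ratio of homozygous over heterozygous on the x axis for the 38 collagen chains (red) and the detected genes of 5 related lists (blue), 1 point per gene, with the list median as a black bar and dashed lines at 2-fold. The named points are the genes past 2-fold, among them Plod2 (−1.60), Timp3 (−1.71) and Cthrc1 (−3.33), while the collagen chains lie within 2-fold by their reported medians. Col19a1 was above background in the heterozygous lung alone, and Col17a1 passed 2-fold under 5 of 8 alternatives.

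In whole lobes, fewer cells of a type and less RNA per cell cannot be told apart. Markers of cells that make collagen were measured beside the chains. All marker values are under loess alone. Median centring turned several bright chains from lower to higher, and its effect on the markers is not given here. The summed level was 16.62 (heterozygous) and 16.33 (homozygous) for 10 of 10 fibroblast and lung mesenchyme markers, 15.27 and 15.45 for 8 of 8 smooth muscle markers, 16.40 and 16.17 for 8 of 8 endothelial markers and 17.26 and 17.09 for 7 of 7 epithelial markers. Ratios lay below 0 for 9 of 10 fibroblast markers, with Wnt2 lowest at −0.60, and for 6 of 8 endothelial markers, against 50.4% of all genes. Many of the fibroblast ratios were near 0, with Pdgfrb at −0.003, Fbln1 at −0.015, Tbx4 at −0.019, Tbx5 at 0.029 and Lum at −0.04. Fgf10 (−0.292), Dcn (−0.235), Tcf21 (−0.16) and Pdgfra (−0.107) lay between these and Wnt2. The summed fibroblast level was lower by a log2 ratio of −0.29 and the endothelial by −0.23, and such sums follow the brightest markers most. By the median of single ratios, the measure used for the chains, fibroblast markers stood at −0.07 and endothelial markers at −0.09. The median of the chains was −0.08. For smooth muscle 6 of 8 ratios lay above 0. Heart and striated muscle markers differed more, with 5 of 8 at least 2-fold lower and summed levels of 15.47 and 14.12. Mesothelial markers had summed levels of 13.70 and 12.98, with 5 of 6 ratios above 0 and Msln at −1.58. For tendon, 4 of 4 markers summed to 13.78 and 13.46, with Thbs4 at −1.23, and for bone 5 of 6 summed to 10.45 and 10.27, with Sp7 not detected. The part of these cells in the collagen ratios was not tested.

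**Figure D5:**
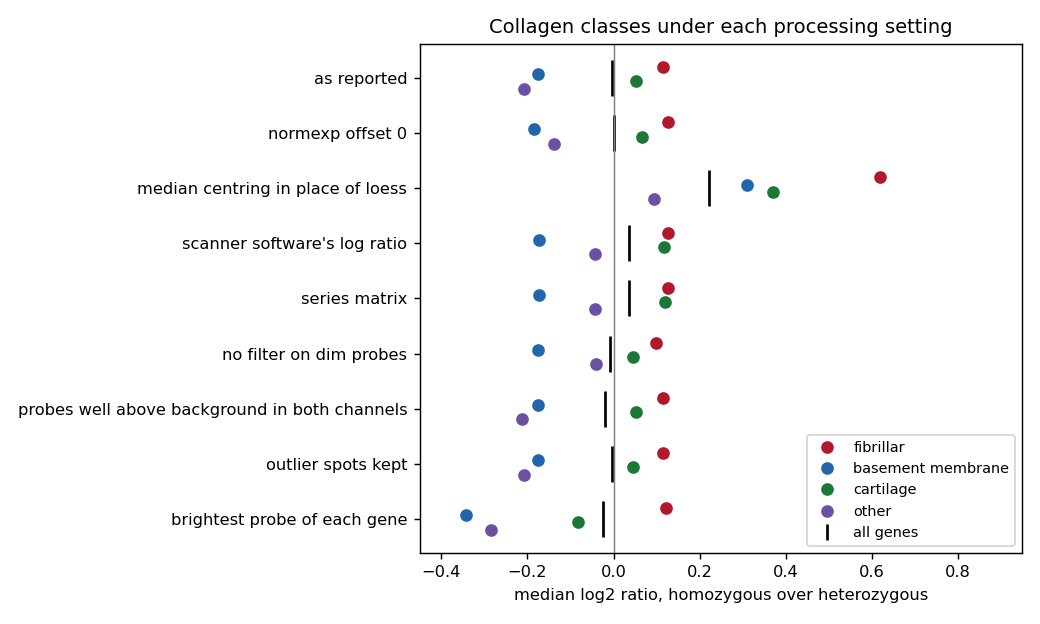
Median log2 ratio of homozygous over heterozygous on the x axis for the 4 collagen classes (coloured points) and all detected genes (black ticks) under the reported processing and 8 alternatives. Fibrillar chains lie to the right of basement membrane chains in each, by 0.115 against −0.175 as reported and 0.618 against 0.310 with median centring, where all classes lie above 0.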

How the data were processed

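The scanner files deposited by the authors give each spot's mean and background intensity, a log10 ratio of red over green and the error of that ratio, per the file headers. Scanning output came from Agilent Feature Extraction 9.5.3.1, per the submitters' processing notes. The deposited files of both samples were identical and count as 1 array. The series matrix deposited by the authors matched each sample's own channel times 1.68 (SD of the log2 factor 0.025 and 0.018), with a floor of 15. Scale and direction follow from that match, no centring was found, and the reason for the factor is unknown. The column medians were 139.8 (heterozygous) and 138.8 (homozygous).

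Mean signals were corrected by normexp (offset 50) and normalized by loess (controls weighted 0). The steps ran in R 4.3.3 with limma 3.58.1 and the data.table package (version 1.17.8) and were tested on simulated data. Further steps used Python 3.11.15, numpy 2.4.6, pandas 2.3.3 and matplotlib 3.10.9. The values omit controls and 169 outlier spots, and 0 spots were saturated. Spots of a probe were averaged, a probe was kept above a 0.5 share of spots well above background in a channel, and the median of its kept probes stands for a gene. Of the 81 collagen probes, 61 matched a RefSeq accession and 20 a symbol, and 0 carried another name there. All detected chains are named, along with the 3 lowest and 2 highest members of each related list. Members and lists were chosen with earlier results of these data known. The single array limits precision, and no test was possible with 1 sample per group. The alternatives changed the background offset, normalization, source of the ratio, filter, outliers, probe summary, list summary and membership.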

Additional observations from a re-analysis of the deposited data

How the results depend on the processing

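The median over all chains was 0.307 with median centring and between −0.192 and −0.015 under the other alternatives for it. Median centring also moved the class medians, to 0.618 for fibrillar, 0.310 for basement membrane, 0.371 for cartilage and 0.093 for other chains, while each other alternative moved them by less than the SD between probes. The number of chains at least 2-fold lower was 1 (Col19a1) with offset 0, with the log ratio of the scanner software and with the series matrix. The cause was not tested. The number at least 2-fold higher was 1 (Col17a1) under those 3, with a filter asking for both channels above background, with the brightest probe, and 1 (Col4a4) with median centring. Of 38 chains, 18 kept their sign under every alternative, 7 lower and 11 higher, and 21 stayed on 1 side of the median of all genes, 10 below and 11 above. The same shares over all genes are not given here, so these counts describe the processing and not the collagens. Median centring raised the median of all genes to 0.22, which favours the count of chains that stayed higher. Of 303 pairs of chain and alternative, 262 moved by less than the chain's scanner error. Some pairs could not move, since a chain with 1 probe keeps its value when the filter or probe summary changes. The count is therefore no measure of stability. With types II and XI counted as fibrillar, the fibrillar median was 0.06 and the cartilage median 0.12. No paired analysis was possible because each group holds 1 sample. Background limits Col19a1, seen in the heterozygous lung alone, and 9 chains with a kept probe above background in the homozygous lung alone. From the remaining probes these stood at 0.60 (Col1a2), −0.36 (Col5a3), −0.81 (Col6a3), −0.52 (Col8a1), −0.48 (Col12a1), 1.13 (Col17a1), 0.02 (Col23a1), −0.35 (Col24a1) and −0.22 (Col25a1). Col20a1 is also dim.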
